A study of Mus musculus with 10 samples.

Results

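Nephron progenitors that had spent 8 days in a dish were set against nephron progenitors that had spent a similar time in the embryo. The 8-day cultures were Six2-GFP-positive cells sorted by flow cytometry from E11.5 mouse embryos and kept for 8 days in conditioned medium (2 arrays). The P0 progenitors were Six2-GFP-positive cells sorted at birth (2 arrays). Together these are 4 of the 10 single-colour Agilent arrays of the study, and they were chosen by sample title alone. The other 6 arrays, 2 each of E11.5 progenitors, Six2-GFP-negative cells at birth (P0 non-progenitors) and 19-day cultures, are given beside them as levels. All cells came from Six2-GFP transgenic mice on a C57BL6J/ICR background, so the transgene is shared by every group. Newborn samples carry P0 in their labels and E19.5 in their data names. Whether GFP was selected a second time after culture is not stated, nor what conditioned the medium, nor whether replicates came from separate litters or cultures, so the p-values below measure only the spread between these samples, which may be technical.

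Six2 marks the cap mesenchyme of the developing kidney, the cells around each ureteric bud tip that renew themselves and supply every epithelial segment of the nephron except the collecting duct. Six2, with Osr1, Sall1, Wt1, Eya1 and Pax2, holds the undifferentiated state, while Wnt signals from the bud start the pretubular aggregate, in which Wnt4, Pax8 and Lhx1 come on. In the mouse these progenitors are used up shortly after birth.

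A level below is a scaled intensity, the background-subtracted probe signal as a multiple of the same array's 75th percentile. A gene was called when its adjusted p in the limma fit of all 10 arrays was under 0.05. Fold changes are 8-day culture over P0 progenitors from means of log2 levels, with a standard error (SE) on the log2 scale. Both the p and the SE rest on the spread within all 5 groups, not only within the 2 compared. Of 26251 tested genes, 1045 were called (3.98%), 632 of them higher in the 8-day cultures (2.41%) and 413 lower (1.57%), and 5327 had an unadjusted p under 0.05. The called genes had a median fold of 4.34, and the median log2 change of all tested genes was 0.13. The share of calls that were higher was 60.5%, against 44.2% of 876 calls after quantile normalization and 67.4% of 829 calls among genes well above background on all arrays. Among the 748 calls of at least 1 log2 unit it was 48.3%.

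The precision rests on few arrays. Leaving out 8-day replicate 1 gave 409 calls and 8-day replicate 2 gave 482, while leaving out P0 replicate 1 gave 125 and P0 replicate 2 gave 123, and 86 genes were called in all 4 of these fits. In each of them the lone array of a group is assumed to vary like the other groups. The hybridisation slide is part of the same limit, since 8-day replicate 1 shared slide 1 with both P0 arrays and 8-day replicate 2 lay on slide 2. Slide 1 alone gave 465 calls. A fixed slide term rests on the 8-day pair alone, the only group on both slides, and gave 482 calls, as did leaving out 8-day replicate 2, with 351 of the 1045 kept in each. On each array 60.4% to 69.8% of 59305 non-control spots were well above background, and none was saturated. Over all tested genes, the 8-day and P0 arrays differed by a root mean square of 1.31 log2 units, the 8-day pair by 1.08 and the P0 pair by 0.833. The 8-day arrays lay 1.41 from E11.5 progenitors, 1.604 from P0 non-progenitors and 1.36 from 19-day cultures. The distance to P0 progenitors was the shortest of the 4 by a margin smaller than the replicate distances. The other pairs differed by 1.22 (E11.5 progenitors), 0.905 (P0 non-progenitors) and 0.969 (19-day cultures). Replicate spread adds to each distance and was largest for E11.5, so the order of distances does not rank how alike the groups are.

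**Figure D1:**
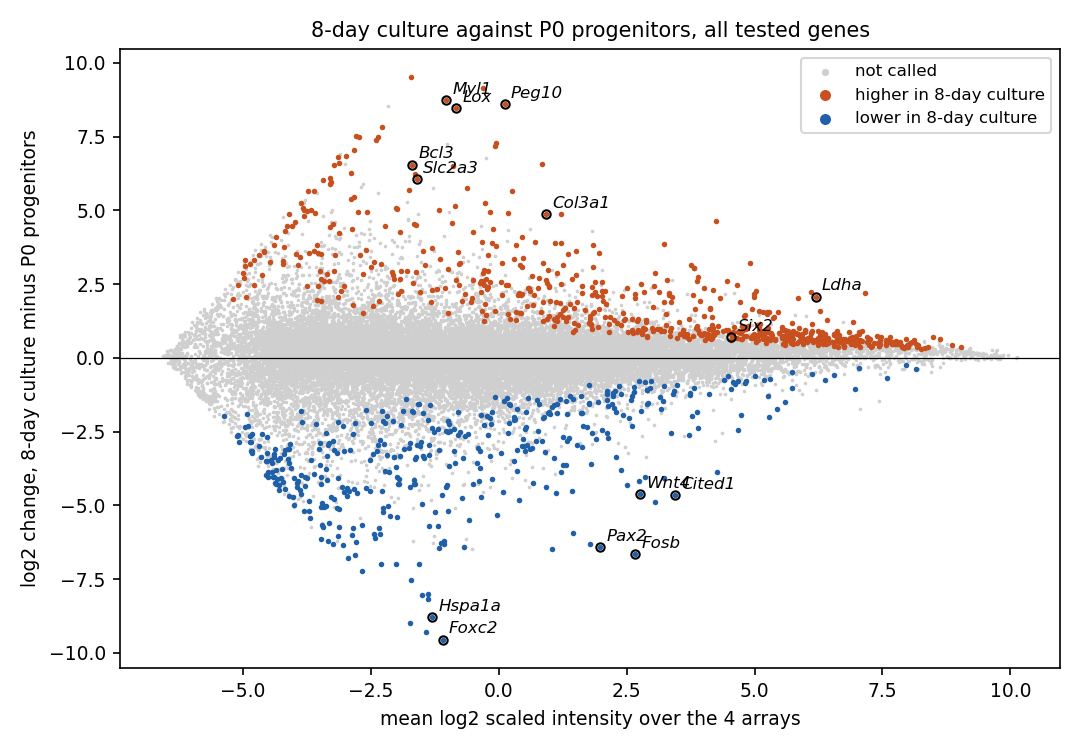
Log2 change of each tested gene (8-day culture minus P0 progenitors, vertical axis) against its mean log2 scaled intensity over the 4 arrays (horizontal axis), with 632 genes called higher, 413 called lower and the rest in grey. Pax2, Cited1 and Wnt4 lie far below 0 at high intensity, Six2 lies near 0, and Col3a1 lies near 5.

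Six2 itself was high in both compared groups and was not called between them. It read 37.0 and 24.3 in the 8-day cultures, against 19.3 and 17.3 in P0 progenitors, with a log2 change of 0.72 ± 0.71 (SE, n = 2 each, adjusted p = 0.63, probe at chr17:86083634-86083693 of mm9). P0 non-progenitors read 0.209 and 0.0428 and 19-day cultures 2.08 and 4.97. These pairs lay further apart on the log2 scale than the compared pairs, and their spread enters the SE and p of Six2. Both 8-day arrays lay above both P0 progenitor arrays and on either side of the E11.5 pair, which read 25.9 and 28.2. Osr1, an early marker of nephrogenic mesoderm, read 7.22 and 3.48, against 2.19 and 1.56 in P0 progenitors (adjusted p = 0.31). Wt1, needed for the survival of the mesenchyme, read 39.4 and 24.4, against 54.2 and 59.8 (adjusted p = 0.096). The zinc finger factor Sall1 read 3.27 and 4.25, against 17.4 and 19.1, a log2 change of -2.29 ± 0.72 that was not called (adjusted p = 0.13). For Sall1 and Wt1 both culture arrays lay below both P0 arrays, as groups did not overlap for 53.1% of all tested genes. The single Eya1 probe read 602 to 855 on all 10 arrays, P0 non-progenitors included, and so does not separate any group here.

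Against this, Pax2 and Cited1 were far lower in the dish. Pax2, a paired-box factor of cap mesenchyme and nephron epithelium, read 0.377 and 0.487 in the 8-day cultures, against 36.6 and 36.7 in P0 progenitors (85.6-fold lower, log2 change -6.42 ± 0.23, adjusted p = 0.000167, probe at chr19:44909895-44909954 of mm9). Both culture arrays sat far below every freshly sorted array, of which E11.5 progenitors read 23.6 and 18.4. Cited1, a transcriptional coregulator that marks the least committed cap cells, read 1.47 and 3.21, against 65.4 and 46.1 (25.2-fold lower, log2 change -4.66 ± 0.53, adjusted p = 0.00725, probe at chrX:99442776-99442835 of mm9). In E11.5 progenitors Cited1 read 8.01 and 12.4, between the compared groups. Meox1, a homeobox gene of early mesoderm, was 19.2-fold lower (0.19 and 0.136 against 3.84 and 2.47, adjusted p = 0.00526), and Spock2, a proteoglycan gene, was 14.5-fold lower (10.3 and 2.5 against 78.5 and 68.9, adjusted p = 0.0359). Gdnf, the ligand that draws the ureteric bud towards the mesenchyme, read 0.0123 and 0.185 against 0.823 and 1.06 and was not called (adjusted p = 0.0995).

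Meox2, a homeobox gene, was higher in culture. It read 1.36 and 1.16 in the 8-day cultures, against 0.173 and 0.0602 in P0 progenitors (12.3-fold higher, adjusted p = 0.0124, with 1 of the P0 arrays well above background), and E11.5 progenitors at 1.38 and 1.47 were at the culture level. Of 30 tested members of the nephron progenitor list, 2 were higher, 5 lower and 23 not called, with a median log2 change of -0.82 beside 0.13 for all genes. That median was -0.38 without 8-day replicate 2 (slide 1 alone) and -0.49 under the normexp background. Pax2 kept its call without any 1 array. Of the 7 calls, 6 were kept without 8-day replicate 1, 5 without 8-day replicate 2, 3 without P0 replicate 1 and 4 without P0 replicate 2.

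Of the first genes of nephron formation, Wnt4, Ccnd1 and Jag1 were lower in culture. Wnt4, the signal that turns induced mesenchyme into epithelium, read 0.854 and 2.22 in the 8-day cultures, against 32.8 and 34.9 in P0 progenitors (24.6-fold lower, log2 change -4.62 ± 0.59, adjusted p = 0.0103, probe at chr4:136855342-136855401 of mm9). E11.5 progenitors, with 2.1 and 5.45, and P0 non-progenitors, with 2.48 and 2.57, were also far below P0 progenitors. Cyclin D1 (Ccnd1) was 21.0-fold lower (0.348 and 0.494 against 8.7 and 8.66, adjusted p = 0.000897) and the Notch ligand gene Jag1 was 8.48-fold lower (0.477 and 0.577 against 3.64 and 5.43, adjusted p = 0.0190). Pax8 read 2.29 and 0.296 against 5.7 and 7.52 (adjusted p = 0.19), with culture replicates further apart than the P0 pair. Lhx1 is uncertain, since its brightest probe changed by -0.52 (adjusted p = 0.28) and another by -5.51. Of 20 tested genes of the pretubular aggregate and renal vesicle, 0 were higher and 3 lower, with a median log2 change of -0.94. Ccnd1 was called in all 4 fits without 1 array, and of the 3 calls 2 were kept without either culture array and 1 without either P0 array.

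**Figure D2:**
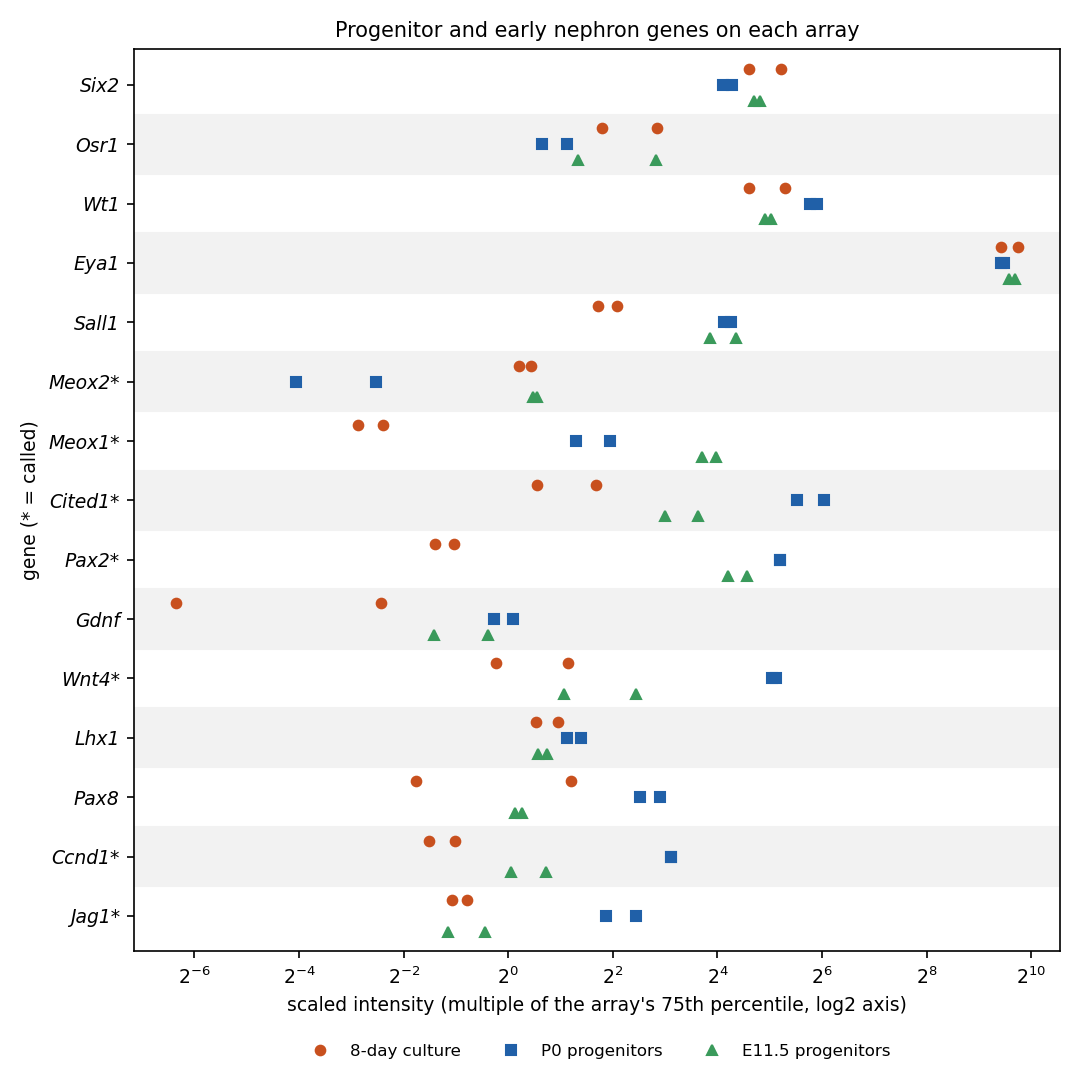
Scaled intensity on each array (log2 axis) of 15 progenitor and early nephron genes in 8-day culture (circles), P0 progenitors (squares) and E11.5 progenitors (triangles), with called genes starred. Six2, Wt1 and Eya1 lie close together in the 3 groups, and Osr1 lies right of P0 progenitors in culture. Pax2, Cited1, Wnt4 and Ccnd1 lie far left of P0 progenitors in culture, while for Wnt4 the culture and E11.5 values overlap.

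Called genes of mature tubule segments and of red cells were lower in culture. Of 16 tested genes of the loop of Henle and distal tubule, 0 were higher and 6 lower, with a median log2 change of -1.37. The calcium-binding protein gene S100g was not well above background in culture (0.0132 and 0.0386) and read 6.98 and 6.14 in P0 progenitors, at least 120-fold lower (adjusted p = 0.000805). Slc12a1, the salt transporter of the thick ascending limb, was at least 13.8-fold lower (0.0119 and 0.00964 against 0.957 and 0.591), the transcription factor gene Tfap2b at least 12.9-fold lower (0.0208 and 0.00994 against 0.918 and 0.535), and uromodulin (Umod) at least 12-fold lower (0.0143 and 0.0453 against 0.738 and 0.575). For each of these 4 genes P0 non-progenitors read more than P0 progenitors, from 7.7 and 8.77 for Slc12a1 to 33.9 and 40.0 for S100g. Of the 6 distal calls, 5 were kept without either culture array and 3 without either P0 array.

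Proximal, collecting duct and podocyte genes gave smaller counts. In the proximal tubule list 3 of 18 were lower and 0 higher (median -0.84), and the secreted phosphoprotein gene Spp2 read 0.0239 and 0.0224 against 1.04 and 2.05 (at least 26.9-fold lower). Lrp2, also called lower, had probes that disagreed, with log2 changes from -5.41 to 0.57. Of these 3 calls 1 was kept without any 1 array. In the ureteric bud and collecting duct list 2 of 16 were lower and 0 higher (median -0.86), and its factor gene Tfcp2l1 read 0.0206 and 0.0244 against 3.76 and 4.53 (at least 75.8-fold lower), while the water channel gene Aqp3 was 7.42-fold lower. Without either P0 array 1 of these 2 calls was kept. In the podocyte list 3 of 17 were lower and 1 higher. Foxc2, a forkhead gene of mesenchyme and podocytes, read 0.0244 and 0.012 in the 8-day cultures, against 9.24 and 17.9 in P0 progenitors (at least 236-fold lower, adjusted p = 0.00183). It was brightest in E11.5 progenitors, at 32.0 and 49.8, so that both freshly sorted progenitor groups lay above the cultures. The tight junction gene Cldn5, shared with endothelium, was 10.3-fold lower. Podxl, a sialomucin of podocyte foot processes, was the remaining lower call, but its probe was not well above background on any array of either group and another of its probes changed by 0.47, so no fold is given. Vegfa, the endothelial growth factor gene that is also in the hypoxia list below, was the member that rose (26.5 and 17.1 against 4.7 and 4.68, 4.55-fold higher). Each single fit without 1 array kept 2 of the 4 podocyte calls.

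Red cell RNA moved the same way. The globin gene Hbb-b2 read 0.015 and 0.0122 in culture, not well above background, against 0.973 and 1.24 in P0 progenitors and 39.2 and 44.5 in P0 non-progenitors (at least 20.2-fold lower in culture than in P0 progenitors, adjusted p = 0.00159). Globin genes share near-identical copies, so their split between members is uncertain. In the erythroid list 3 of 9 were lower and 0 higher. Of these 3 calls 1 was kept without 8-day replicate 1 and without either P0 array, and 2 without 8-day replicate 2. In the endothelial list 1 of 16 was lower (Cldn5, 6.25% beside 3.98% of all genes), and in the macrophage and leukocyte list 0 of 17 were called by limma.

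Summed over each list, the scaled intensity of distal genes was 13.5 to 21.7 in the 8-day cultures, 23.7 to 30.7 in P0 progenitors and 167 to 194 in P0 non-progenitors. Proximal genes summed to 7.91 to 11.52, 12.1 to 15.3 and 127 to 145 in the same order of groups. Erythroid genes summed to 1.39 to 1.41, 12.4 to 18.0 and 669 to 797. Endothelial genes summed to 7.76 to 8.79, 10.1 to 10.7 and 65.0 to 71.4. In each of these lists P0 progenitors lay above the cultures and far below P0 non-progenitors. The podocyte and the macrophage and leukocyte lists did not follow this order. Podocyte genes summed to 35.0 to 44.2, 39.6 to 47.4 and 74.7 to 79.8. Macrophage and leukocyte genes summed to 275 to 414, 331 to 337 and 323 to 342. The part of such cells in the P0 levels was not tested. In bulk RNA fewer cells of a type and less RNA per cell cannot be told apart.

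**Figure D3:**
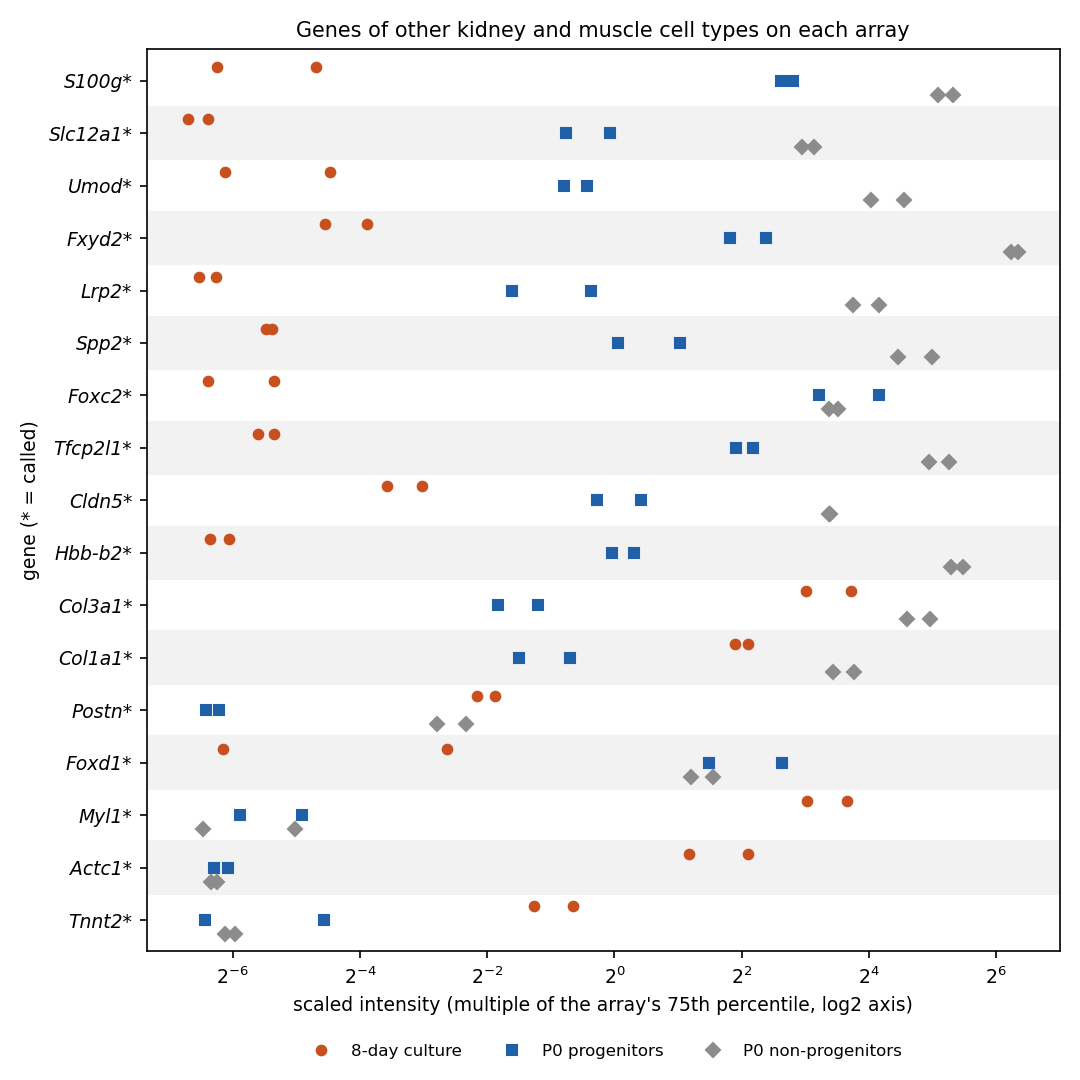
Scaled intensity on each array (log2 axis) of 17 genes of other kidney cell types and of muscle in 8-day culture (circles), P0 progenitors (squares) and P0 non-progenitors (diamonds). Tubule and globin genes fall in the order 8-day culture, P0 progenitors, P0 non-progenitors from left to right, while Myl1, Actc1 and Tnnt2 are bright in culture alone.

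The gene list that moved most uniformly was glycolysis and hypoxia. Glycolysis splits glucose to pyruvate, and cells short of oxygen raise glucose uptake, glycolytic enzymes and lactate export through hypoxia-inducible factors. Of 23 tested members 18 were higher in the 8-day cultures and 0 lower (78.3% called, beside 3.98% of all genes), all 23 log2 changes were positive, and the median was 2.12. The 5 members called in all 4 fits without 1 array were Ldha, Pgk1, Aldoa, Tpi1 and Pgam1. Ldha, Pgk1, Aldoa and Pgam1 were chosen for naming after their values were seen. The letters that hypoxia-inducible factors are known to bind, ACGTG, were searched on both strands in the RefSeq promoters of GRCm38.p6, each 250 bases before to 50 after a gene's start. Of the 23 members 21 have a promoter there, and 15 of the 21 hold a match in at least 1 promoter, against 21.8% of all 27025 genes in the table. Counted by promoter, 16 of 30 hold a match, against 19.6% of all 32851. The list was drawn up to hold hypoxia genes, with earlier results of these data known. A high share of matches was thus built in, and the cause of the rise was not tested. CACGTG holds a match on each strand. The promoters of 3 risen genes with a match and of 1 without are shown because these genes moved together, with matches in capitals. A second Ldha promoter, at chr7:46846832-46847131, holds 0 matches and is not shown.
Pgk1, chrX:106186850-106187149, plus strand, 2 capital runs: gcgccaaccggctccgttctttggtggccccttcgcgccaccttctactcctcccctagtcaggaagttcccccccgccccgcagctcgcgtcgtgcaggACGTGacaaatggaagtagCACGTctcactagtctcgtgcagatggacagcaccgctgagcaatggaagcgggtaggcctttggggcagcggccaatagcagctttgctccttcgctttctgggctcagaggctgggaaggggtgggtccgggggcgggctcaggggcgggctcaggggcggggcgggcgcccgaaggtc
Ldha, chr7:46845554-46845853, plus strand, 3 capital runs: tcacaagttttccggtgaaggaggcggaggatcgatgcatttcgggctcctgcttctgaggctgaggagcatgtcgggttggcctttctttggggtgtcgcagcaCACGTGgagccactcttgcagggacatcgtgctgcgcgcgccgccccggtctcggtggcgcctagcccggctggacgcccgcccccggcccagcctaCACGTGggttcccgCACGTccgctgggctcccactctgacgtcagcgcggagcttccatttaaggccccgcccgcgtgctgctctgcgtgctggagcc
Slc2a1, chr4:119108495-119108794, plus strand, 1 capital run: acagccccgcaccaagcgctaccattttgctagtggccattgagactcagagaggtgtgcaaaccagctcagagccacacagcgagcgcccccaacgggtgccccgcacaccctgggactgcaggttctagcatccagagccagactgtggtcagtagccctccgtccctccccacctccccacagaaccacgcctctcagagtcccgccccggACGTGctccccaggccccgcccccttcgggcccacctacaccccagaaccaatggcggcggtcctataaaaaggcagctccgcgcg
Tpi1, chr6:124814109-124814408, minus strand, 0 capital runs: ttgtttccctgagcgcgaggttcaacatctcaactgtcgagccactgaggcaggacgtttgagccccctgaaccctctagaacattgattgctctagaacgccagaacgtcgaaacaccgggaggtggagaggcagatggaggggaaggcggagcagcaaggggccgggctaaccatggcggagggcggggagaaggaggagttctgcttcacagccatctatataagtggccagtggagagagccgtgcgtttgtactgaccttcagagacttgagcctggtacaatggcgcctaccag

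Slc2a3, a high-affinity glucose transporter, read 3.74 and 1.93 in the 8-day cultures, against 0.116 and 0.0141 in P0 progenitors (66.4-fold higher, adjusted p = 0.0161), with 1 of the P0 arrays well above background. The widespread glucose transporter Slc2a1 read 26.6 and 22.4, against 3.8 and 4.02 (6.25-fold higher, log2 change 2.64 ± 0.28, adjusted p = 0.00527). Slc16a3, which exports lactate, read 9.42 and 4.28, against 0.393 and 0.449 (15.1-fold higher, adjusted p = 0.00881). Car9, a carbonic anhydrase induced by low oxygen, read 4.63 and 3.35, against 0.453 and 0.445 (8.77-fold higher, adjusted p = 0.0113).

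The enzymes called in all 4 fits rose less. Tpi1, which interconverts the triose phosphates, read 65.8 and 53 in the 8-day cultures, against 11 and 10.3 in P0 progenitors (5.55-fold higher, log2 change 2.47 ± 0.16, adjusted p = 0.000805). Pgk1, phosphoglycerate kinase, read 136 and 164 against 29.1 and 35.1 (4.67-fold). Aldolase A (Aldoa) read 339 and 278 against 70.3 and 62.6 (4.63-fold). Lactate dehydrogenase A (Ldha) read 161 and 141 against 35.8 and 35.5 (4.23-fold), and the mutase Pgam1 171 and 200 against 89.2 and 70.1 (2.34-fold). In all 5 enzymes the 2 culture arrays lay above both P0 arrays by more than either pair spread. Groups did not overlap in any of the 1045 called genes, nor in 53.1% of all tested genes, so lack of overlap adds nothing to these calls. E11.5 progenitors read 148 and 146 for Ldha and 142 and 150 for Pgam1, close to the cultures, and 21.6 and 26.3 for Tpi1, between the groups.

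Not all members were called. Hexokinase 2 (Hk2) read 8.0 and 5.41 in culture, against 2.11 and 1.59 in P0 progenitors (adjusted p = 0.071), phosphofructokinase Pfkp 2.47 and 2.44 against 1.73 and 1.5 (adjusted p = 0.17), and the oxygen-sensing hydroxylase Egln3 3.13 and 4.39 against 0.561 and 0.0488 (adjusted p = 0.078). Of the 18 calls, 11 were kept without 8-day replicate 1, 13 without 8-day replicate 2, 7 without P0 replicate 1 and 6 without P0 replicate 2. Hif3a, a hypoxia-inducible factor subunit outside the list, was among the largest rises (11.9 and 13.4 against 0.596 and 0.303, 29.7-fold higher, adjusted p = 0.0159), and so was Ppp1r3c, a glycogen-targeting phosphatase subunit (3.8 and 1.75 against 0.0808 and 0.145, 23.8-fold higher). Hif3a was called in none of the 4 fits without 1 array and Ppp1r3c in 2.

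**Figure D4:**
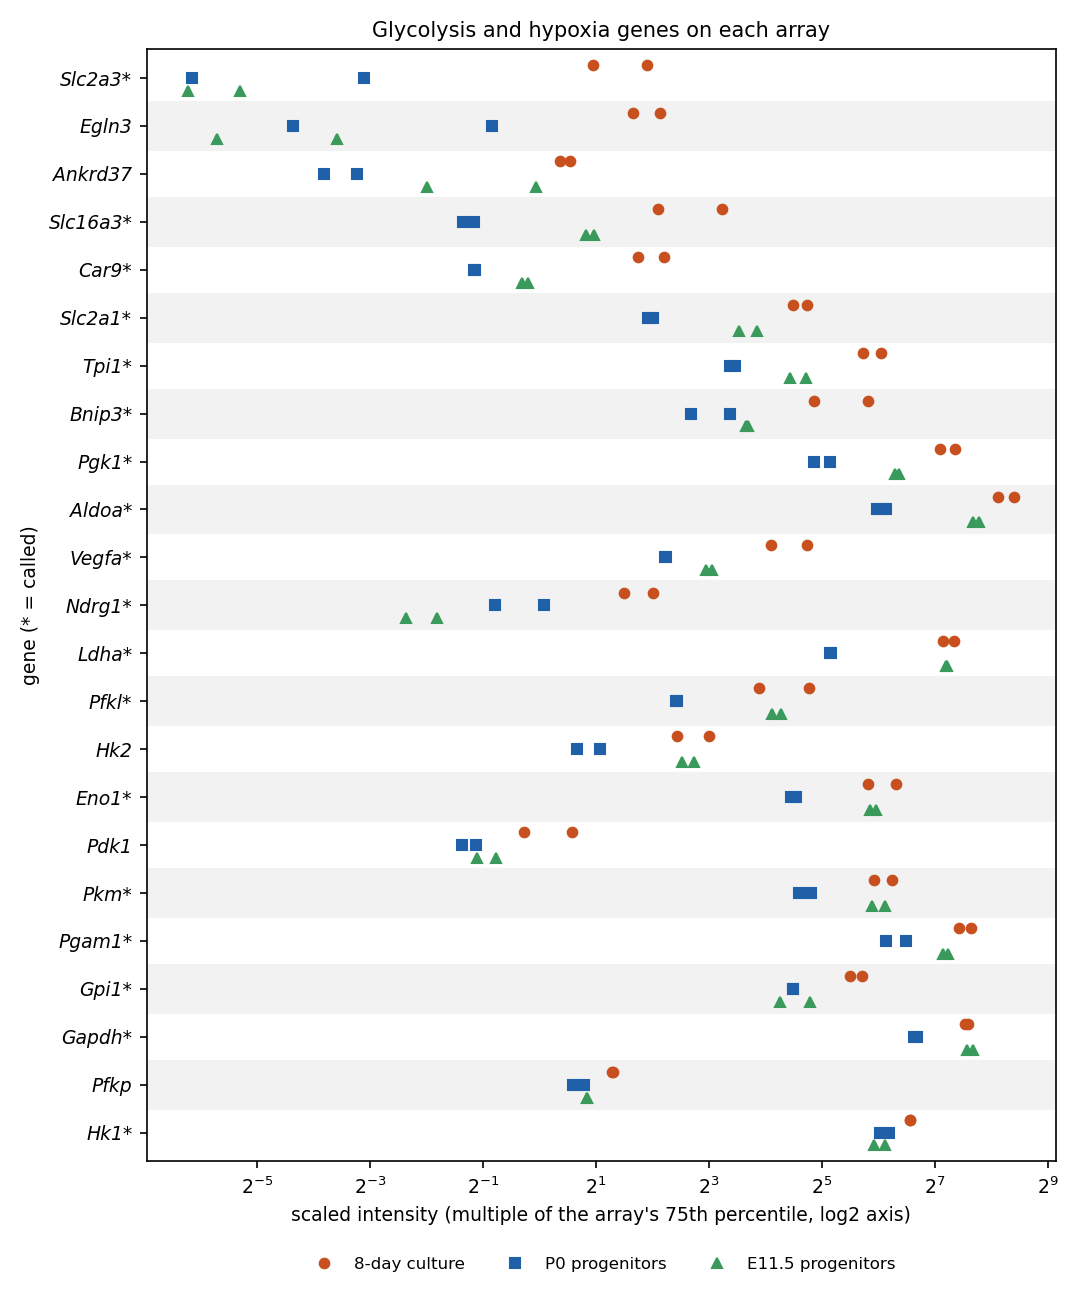
Scaled intensity on each array (log2 axis) of the 23 glycolysis and hypoxia genes in 8-day culture (circles), P0 progenitors (squares) and E11.5 progenitors (triangles), ordered by log2 change. In each row both circles lie right of both squares (groups did not overlap, in either direction, for 53.1% of all tested genes). E11.5 progenitors lie near the circles for Ldha and Pgam1 and near the squares for Hk1.

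Of 26 tested genes of cholesterol and fatty acid synthesis, 9 were higher and 0 lower, with a median log2 change of 1.09. Scd1, a desaturase that makes monounsaturated fatty acids, read 12 and 15.3 in the 8-day cultures, against 0.4 and 2.26 in P0 progenitors (14.3-fold higher, adjusted p = 0.0295). The sterol enzyme gene Nsdhl was 2.96-fold higher and Scd2 2.92-fold higher. These calls were fragile, as 2 of 9 were kept without either culture array and 1 of 9 without either P0 array.

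In the amino acid and ER stress list 4 of 19 were higher and 1 lower (median 1.15). Ddit4, a stress-induced brake on mTORC1, read 100 and 90 in the 8-day cultures, against 5.41 and 2.72 in P0 progenitors (24.7-fold higher, log2 change 4.63 ± 0.35, adjusted p = 0.00142). All freshly sorted arrays lay at or below 20. The pseudokinase gene Trib3 read 5.03 and 2.14, against 0.0964 and 0.0882 (35.6-fold higher, adjusted p = 0.0466), and the serine synthesis enzyme gene Psat1 was 3.71-fold higher. Phgdh, the first enzyme of serine synthesis, went the other way (2.93 and 3.09 against 7.36 and 7.36, 2.45-fold lower, adjusted p = 0.0448). Atf4, the factor that drives many of these genes, read 64.9 and 34.5 against 92.8 and 78.7 and was not called (adjusted p = 0.16). Each single fit without 1 array kept 1 of the 5 calls, Ddit4. Of 15 tested metallothionein, oxidative and aryl hydrocarbon genes 3 were higher and 0 lower: Cyp1b1 9.35-fold, Mt1 4.13-fold and Nqo1 3.62-fold. Without P0 replicate 1, P0 replicate 2 or 8-day replicate 1 none of these 3 was called.

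Several collagen genes and the cross-linking enzyme gene Lox were higher in culture. Of 19 tested members of the fibrillar collagen and cross-linking list 7 were higher and 1 lower, with a median log2 change of 1.53. Lox, the lysyl oxidase that starts collagen cross-links, read 15.7 and 7.11 in the 8-day cultures, against 0.0547 and 0.0162 in P0 progenitors (355-fold higher, log2 change 8.47 ± 0.73, adjusted p = 0.00210), with 1 of the P0 arrays well above background. Col3a1, a fibrillar collagen of loose connective tissue, read 13.2 and 8.03, against 0.281 and 0.433 (29.5-fold higher, log2 change 4.88 ± 0.33, adjusted p = 0.000963). Col6a3 was not well above background in P0 progenitors and was at least 22.0-fold higher (1.12 and 1.15 against 0.0109 and 0.0126), and Col1a1 was 8.56-fold higher (4.29 and 3.73 against 0.354 and 0.618). Col5a2 was the member that fell, at 0.0124 and 0.01 in culture, not well above background, against 0.0898 and 0.0713 (at least 1.47-fold lower). Lox, Col3a1 and Col6a3 were called in all 4 fits without 1 array. Of the 8 calls, 5 were kept without 8-day replicate 1, 6 without 8-day replicate 2, 3 without P0 replicate 1 and 5 without P0 replicate 2.

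The 8-day cultures were not the brightest samples for Col3a1 and Col1a1. Col3a1 read 24.3 and 31.1 in P0 non-progenitors and 90.3 and 66.7 in 19-day cultures, and Col1a1 read 13.6 and 10.8 and 82.3 and 49.8 in the same groups. The renal stroma and mural list, which shares Col1a1 and Col3a1, had 5 of 18 higher and 2 lower (median 0.98). Meis1, a homeobox gene of renal stroma, read 11 and 7.3 in the 8-day cultures, against 0.452 and 0.791 in P0 progenitors (15-fold higher, adjusted p = 0.0124). E11.5 progenitors already read 10.1 and 3.77, while P0 non-progenitors read 1.42 and 2.11, below the cultures. The matrix gene Postn was at least 4.77-fold higher (0.271 and 0.223 against 0.0117 and 0.0135). Foxd1, which defines the stromal lineage, went the other way (0.014 and 0.162 against 6.17 and 2.8, 87.4-fold lower, adjusted p = 0.0353, well above background on 1 of the culture arrays), and so did Meis2 (3.08 and 2.45 against 10.7 and 10.6, 3.86-fold lower). Summed over the list, stromal genes reached 83.4 to 113 in the 8-day cultures, 56.1 to 59.2 in P0 progenitors and 179 to 181 in P0 non-progenitors, and the part of stromal cells in the collagen levels was not tested. Of the 7 calls, 3 were kept without 8-day replicate 1, 5 without 8-day replicate 2, 1 without P0 replicate 1 and 2 without P0 replicate 2.

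Other matrix genes moved singly. Fibronectin (Fn1) read 69.3 and 23.8 in the 8-day cultures, against 4.92 and 4.84 in P0 progenitors (8.33-fold higher, adjusted p = 0.0135), and the laminin chain gene Lamc1 was 2.73-fold lower (4.75 and 6.55 against 14.1 and 16.4). In that list of matrix glycoproteins and basement membrane 2 of 26 were higher and 1 lower, and none of the 3 was called without either P0 array. Among matrix proteases and their inhibitors 2 of 24 were higher and 1 lower (12.5% called). The gelatinase gene Mmp9 read 11.7 and 0.514, against 0.0161 and 0.0131 (at least 47.6-fold higher, adjusted p = 0.0283), with culture replicates 1 and 2 far apart, and Mmp2 was 3.72-fold lower. None of these 3 was called without either P0 array. Of 21 YAP and SRF cytoskeletal targets 3 were higher and 1 lower: the intermediate filament gene Vim was 3.79-fold higher (31.0 and 28.6 against 8.33 and 7.4, adjusted p = 0.00631), and the matricellular gene Ccn1 14.8-fold lower (0.556 and 0.659 against 13.2 and 6.06, adjusted p = 0.00894). Without either P0 array 1 of these 4 was called.

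Contractile genes of striated muscle made up most of the called members of the skeletal muscle list. Of 22 listed skeletal muscle genes 16 were tested, 8 were higher and 1 lower (56.25% called, beside 3.98% of all genes). The median log2 change was 2.57. All 16 had a probe well above background on at least 1 array of the 8-day cultures, and 12 in P0 progenitors. A gene bright in culture alone passes the filter through culture, so the filter itself partly sets this share and median. Myl1, a fast myosin light chain, read 8.18 and 12.6 in culture, against 0.0333 and 0.0169 in P0 progenitors, not well above background there (at least 197-fold higher, adjusted p = 0.0380, while another probe of the gene changed by 0.80). Cardiac alpha-actin (Actc1) read 2.25 and 4.28, against 0.0128 and 0.0148 (at least 60.2-fold higher, adjusted p = 0.000467). The troponin gene Tnnt2 read 0.634 and 0.416, against 0.0115 and 0.0421 (at least 9.96-fold higher), and the myosin light chain gene Myl4 2.53 and 3.8, against 0.142 and 0.183 (19.2-fold higher). All freshly sorted arrays read at most 0.0697 for Actc1 and 0.0333 for Myl1.

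Myod1, the master factor of the muscle programme, read 4.35 and 5.4 in the 8-day cultures, against 2.87 and 2.52 in P0 progenitors, and was not called (adjusted p = 0.059), and Myf5, Myf6, Pax3 and Pax7 were too dim to be tested. Mef2c, a factor of muscle and other mesoderm, was among the largest rises (3.57 and 2.69 against 0.175 and 0.236, 15.2-fold higher, adjusted p = 0.00837). The micropeptide gene Mrln was the member that fell (0.0825 and 0.103 against 2.68 and 2.02, 25.2-fold lower, adjusted p = 0.0433). In 19-day cultures Actc1 read 0.0102 and 0.0104 and Mef2c 0.123 and 0.151, while Myl4 read 0.715 and 1.66 and Myl1 0.00957 and 0.77. Summed over the 16 genes the level was 41.3 and 55.7 in the 8-day cultures, against 10.8 to 12.2 in P0 progenitors, and the part of muscle cells among the cultured cells was not tested. Actc1 alone was called in all 4 fits without 1 array. Of the 9 calls 2 were kept without either culture array, 2 without P0 replicate 1 and 1 without P0 replicate 2.

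Growth-control genes that are expressed from a single parental allele were higher where they were called. Of 19 tested imprinted genes 6 were higher and 0 lower (median 1.21). Peg10, a retrotransposon-derived gene, read 24.4 and 18.5 in the 8-day cultures, against 0.0684 and 0.0445 in P0 progenitors (385-fold higher, log2 change 8.59 ± 0.36, adjusted p = 0.000167), with 1 of the P0 arrays well above background. E11.5 progenitors read 5.32 and 4.97 and P0 non-progenitors 2.69 and 2.78, so P0 progenitors were the dimmest of the 5 groups. The zinc finger gene Plagl1 read 80.2 and 106, against 12.8 and 7.6 (9.37-fold higher, adjusted p = 0.00592), though another of its probes changed by 0.19. The Cdk inhibitor gene Cdkn1c was 7.86-fold higher (5.68 and 5.29 against 0.667 and 0.728) and the membrane protein gene Dlk1 6.78-fold higher (4.36 and 3.85 against 0.423 and 0.862). E11.5 progenitors were near or above the culture level for both, at 8.48 and 5.28 for Cdkn1c and 5.43 and 10 for Dlk1. The neighbours Igf2 and H19 were not called: Igf2 read 37.5 and 45.4 against 44.8 and 47.2, and H19 150 and 283 against 246 and 293. Peg10 and Plagl1 were the 2 calls kept in each of the 4 fits without 1 array.

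Fetal timing genes, whose fall marks the ageing of progenitors in the embryo, were mostly not called. Of 14 tested members 0 were higher and 1 lower (7.14% called, beside 3.98% of all genes, median 0.68). Mycn, which supports progenitor growth, read 13.7 and 13.8 in the 8-day cultures, against 47.4 and 57.1 in P0 progenitors (3.78-fold lower, adjusted p = 0.0122), a call lost in all 4 fits without 1 array. Hmga2 read 5.51 and 8.41 in culture, against 4.4 and 3.52 (adjusted p = 0.14), while E11.5 progenitors read 29.2 and 27.5. Lin28b, the repressor of let-7 microRNAs, was not well above background in either group, and E11.5 progenitors read 0.212 and 0.394. Posterior Hox genes, which fix position along the body, had 1 of 13 higher and 1 lower: Hoxd13 was at least 11.4-fold higher (0.597 and 0.583 against 0.0474 and 0.0453), and Hoxb9 18.0-fold lower (0.164 and 0.197 against 3.88 and 2.7). Neither was called without either P0 array. Hoxa11, the Hox gene most needed for the kidney together with its paralogs, read 21.3 and 15, against 17.2 and 18.9 (adjusted p = 0.99).

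Id genes, targets of BMP signals, and the Notch targets Hey1 and Heyl were lower in the 8-day cultures. BMP receptors act through Smad proteins to raise the Id genes, which block differentiation factors. Of 27 tested BMP pathway genes 0 were higher and 5 lower (median -0.99). Id1 read 1.94 and 1.12 in the 8-day cultures, against 9.98 and 7.28 in P0 progenitors (5.79-fold lower, adjusted p = 0.0090), Id2 was 2.74-fold lower, Id3 2.44-fold lower and Id4 37.3-fold lower (0.0139 and 0.0838 against 1.56 and 1.04, well above background on 1 of the culture arrays). The secreted regulator gene Bmper was not well above background in 8-day culture and was at least 170-fold lower (0.0153 and 0.0145 against 8.18 and 10.5, adjusted p = 0.00159). In 19-day cultures Bmper read 13.4 and 2.37 and Id3 11 and 7.84. Id1 read 3.55 and 2.67 there, Id2 1.03 and 1.15 and Id4 0.0791 and 0.027, all below P0 progenitors. The receptor gene Bmpr1a (8.2 and 7.93 against 8.86 and 12.8) was not called. Bmper alone was called in all 4 fits without 1 array. Of the 5 calls, 2 were kept without 8-day replicate 1, 3 without 8-day replicate 2 and 1 without either P0 array.

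Notch receptors are cleaved on contact with a ligand and raise Hey and Hes genes. Of 22 tested Notch genes 5 were lower and 1 higher (median -0.24). Hey1 read 1.59 and 1.22 in the 8-day cultures, against 16.7 and 23 in P0 progenitors (14.1-fold lower, log2 change -3.81 ± 0.29, adjusted p = 0.00153). Heyl was not well above background in culture and was at least 35.0-fold lower (0.0141 and 0.0116 against 1.96 and 1.85). Besides the ligand gene Jag1 given above, the receptor gene Notch4 was at least 5.94-fold lower. Hes1, another target, read 3.15 and 2.21, against 2.58 and 2.72 (adjusted p = 1.00), and Rbpj, the DNA-binding partner of cleaved Notch, 9.83 and 6.28 against 12.3 and 10.4 (adjusted p = 0.73). Dlk1, an imprinted relative of Notch ligands, was the member that rose. Of the 6 calls 2 were kept without either culture array or P0 replicate 1, and 1 without P0 replicate 2.

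Retinoic acid, made from retinol through retinal, acts on nuclear receptors. Of 18 tested members 4 were lower and 0 higher, although the list's median was 0.25. Dhrs3, which converts retinal back to retinol and is itself induced by retinoic acid, read 0.0217 and 0.213 in 8-day culture, against 5.92 and 5.67 in P0 progenitors (85.0-fold lower, adjusted p = 0.0219, well above background on 1 of the 8-day arrays). The 19-day cultures read 12.6 and 2.58. Stra6, a retinol uptake receptor, was at least 17.9-fold lower (0.0619 and 0.0299 against 0.938 and 1.03). The synthesis enzyme Aldh1a2 read 51.1 and 33.3, against 35.2 and 34.8 (adjusted p = 0.65). None of the 4 calls was kept without either P0 array.

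FGF signals keep nephron progenitors alive and dividing. Of 26 tested FGF and ERK genes 2 were higher and 1 lower. Dusp6, the phosphatase raised by ERK activity that feeds back on it, read 65.0 and 70.2 in the 8-day cultures, against 15 and 15.2 in P0 progenitors (4.47-fold higher, log2 change 2.16 ± 0.14, adjusted p = 0.000897), and kept its call without any 1 array. Other ERK targets were not called: Etv4 read 18.1 and 12.9 against 19.6 and 15.4, and Etv5 13.3 and 16.2 against 12.3 and 11.9. The receptor gene Fgfr1 was 1.55-fold higher by its brightest probe, and another probe changed by -3.17, so its direction is uncertain. The ligand gene Fgf18 was at least 12.1-fold lower (0.0225 and 0.0412 against 0.461 and 0.941), and both its call and that of Fgfr1 were lost without either P0 array.

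The cytokine factor Stat3, which LIF and related ligands activate, was higher in culture. It read 49.2 and 29.7 in the 8-day cultures, against 5.68 and 5.84 in P0 progenitors (6.64-fold higher, log2 change 2.73 ± 0.28, adjusted p = 0.00478). Bcl3, a nuclear partner of NF-kappaB, was not well above background in P0 progenitors and was at least 58.0-fold higher (5.09 and 1.76 against 0.0386 and 0.0264, adjusted p = 0.00178). Both were called in all 4 fits without 1 array, and in 19-day cultures Stat3 read 63.8 and 64.7 and Bcl3 3.55 and 4.02. They were the 2 called members of 18 in the list of LIF, cytokine and STAT3 genes (11.1%, beside 3.98% of all genes). The shared receptor chain gene Il6st read 10.1 and 5.81, against 5.48 and 5.2 (adjusted p = 0.47), and Lifr 5.4 and 3.55 against 5.62 and 6.89 (adjusted p = 0.44). Probes of Lifr disagreed, with log2 changes from -1.71 to 0.26. Among 28 chemokine and interferon genes 1 was higher and 1 lower (7.14% called, beside 3.98% of all genes). Cxcl12 read 4.56 and 6.26, against 27.2 and 39.8 (6.15-fold lower, adjusted p = 0.00196), and the neutrophil chemokine gene Cxcl5 85.0 and 4.37, against 0.0602 and 0.0195 (562-fold higher, adjusted p = 0.0289, with 1 of the P0 arrays well above background and the culture replicates far apart). The call of Cxcl12 was kept in all 4 fits without 1 array and that of Cxcl5 in 1.

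In the TGF-beta and activin list 1 of 27 was higher and 1 lower (7.41% called, near the 3.98% of all genes). Ltbp1, which stores latent TGF-beta in the matrix, read 1.41 and 1.65 in the 8-day cultures, against 38.9 and 52 in P0 progenitors (29.5-fold lower, adjusted p = 0.000501), while another probe of the gene changed by -0.03. Tgfbr3, a co-receptor, was 2.80-fold higher. In the Wnt list 0 of 35 were higher and 2 lower, Wnt4 and Cxxc4 (5.71% called, also near that share). Cxxc4, a gene for an inhibitor of Wnt signalling, read 0.275 and 0.179 against 3.89 and 3.69 (17.1-fold lower, adjusted p = 0.00527). Neither Wnt call was kept without either P0 array.

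The immediate early genes Fosb, Jun and Fos, of a class that responds within minutes to growth factors and to handling, were lower in the 8-day cultures. Of 21 tested members 3 were lower and 0 higher, with a median log2 change of -1.73, which was -0.92 without 8-day replicate 2 (slide 1 alone) and -0.63 under the normexp background. Fosb read 0.534 and 0.752 in culture, against 79.7 and 50 in P0 progenitors (99.6-fold lower, adjusted p = 0.0103). Jun read 0.254 and 0.523, against 6.93 and 6.85 (18.9-fold lower, log2 change -4.24 ± 0.34, adjusted p = 0.00159), and Fos 3.79 and 0.65, against 31.1 and 26 (18.1-fold lower, adjusted p = 0.0335). Egr1 read 128 and 41.9, against 279 and 210, and was not called (adjusted p = 0.088). The fall was not uniform, as 5 of the 21 log2 changes were positive. Fosl2 read 30.7 and 23.8, against 4.5 and 8.23, a log2 change of 2.15 that was not called (adjusted p = 0.16). All 6 freshly sorted arrays were above both 8-day arrays for Fosb, Jun and Fos, at 46.5 to 107 for Fosb. The 19-day cultures read 125 and 15 for Fosb and 43.5 and 16.1 for Fos, above both 8-day arrays. For Jun they read 1.51 and 1.41, below the freshly sorted arrays. The stress chaperone gene Hspa1a moved with them, at 0.0362 and 0.0103 in culture, not well above background, against 9.99 and 7.2 (at least 156-fold lower, adjusted p = 0.00307). A second sort after culture is not stated, so sorting and culture cannot be told apart here. Jun and Hspa1a were called in all 4 fits without 1 array. Of the 3 immediate early calls 2 were kept without either culture array and 1 without either P0 array.

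Cell cycle genes were close to the background share of calls. Of 29 tested DNA replication genes 0 were higher and 1 lower (3.45%, median -0.20), and of 29 mitosis genes 0 were higher and 1 lower (3.45%, median -0.27). The helicase subunit gene Mcm7 read 26.9 and 22.1 in the 8-day cultures, against 55.3 and 64.6 in P0 progenitors (2.45-fold lower, adjusted p = 0.00928), and Mcm6, of the same complex, 121 and 98.3 against 112 and 97.2 (adjusted p = 0.87). Foxm1, which drives mitotic genes, was 4.72-fold lower, though another of its probes changed by -0.03. The proliferation marker Mki67 had a log2 change of -0.97 ± 0.27 and was not called (adjusted p = 0.097). Neither Mcm7 nor Foxm1 was called without either P0 array. Among 22 Cdk inhibitors and p53 targets 2 were higher (9.09% called, beside 3.98% of all genes), Cdkn1c and the apoptosis gene Pmaip1. Pmaip1 read 9.9 and 13.1 against 0.0529 and 0.117 (144-fold higher, adjusted p = 0.0438, with 1 of the P0 arrays well above background). Both calls were lost in each fit without 1 array.

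**Figure D5:**
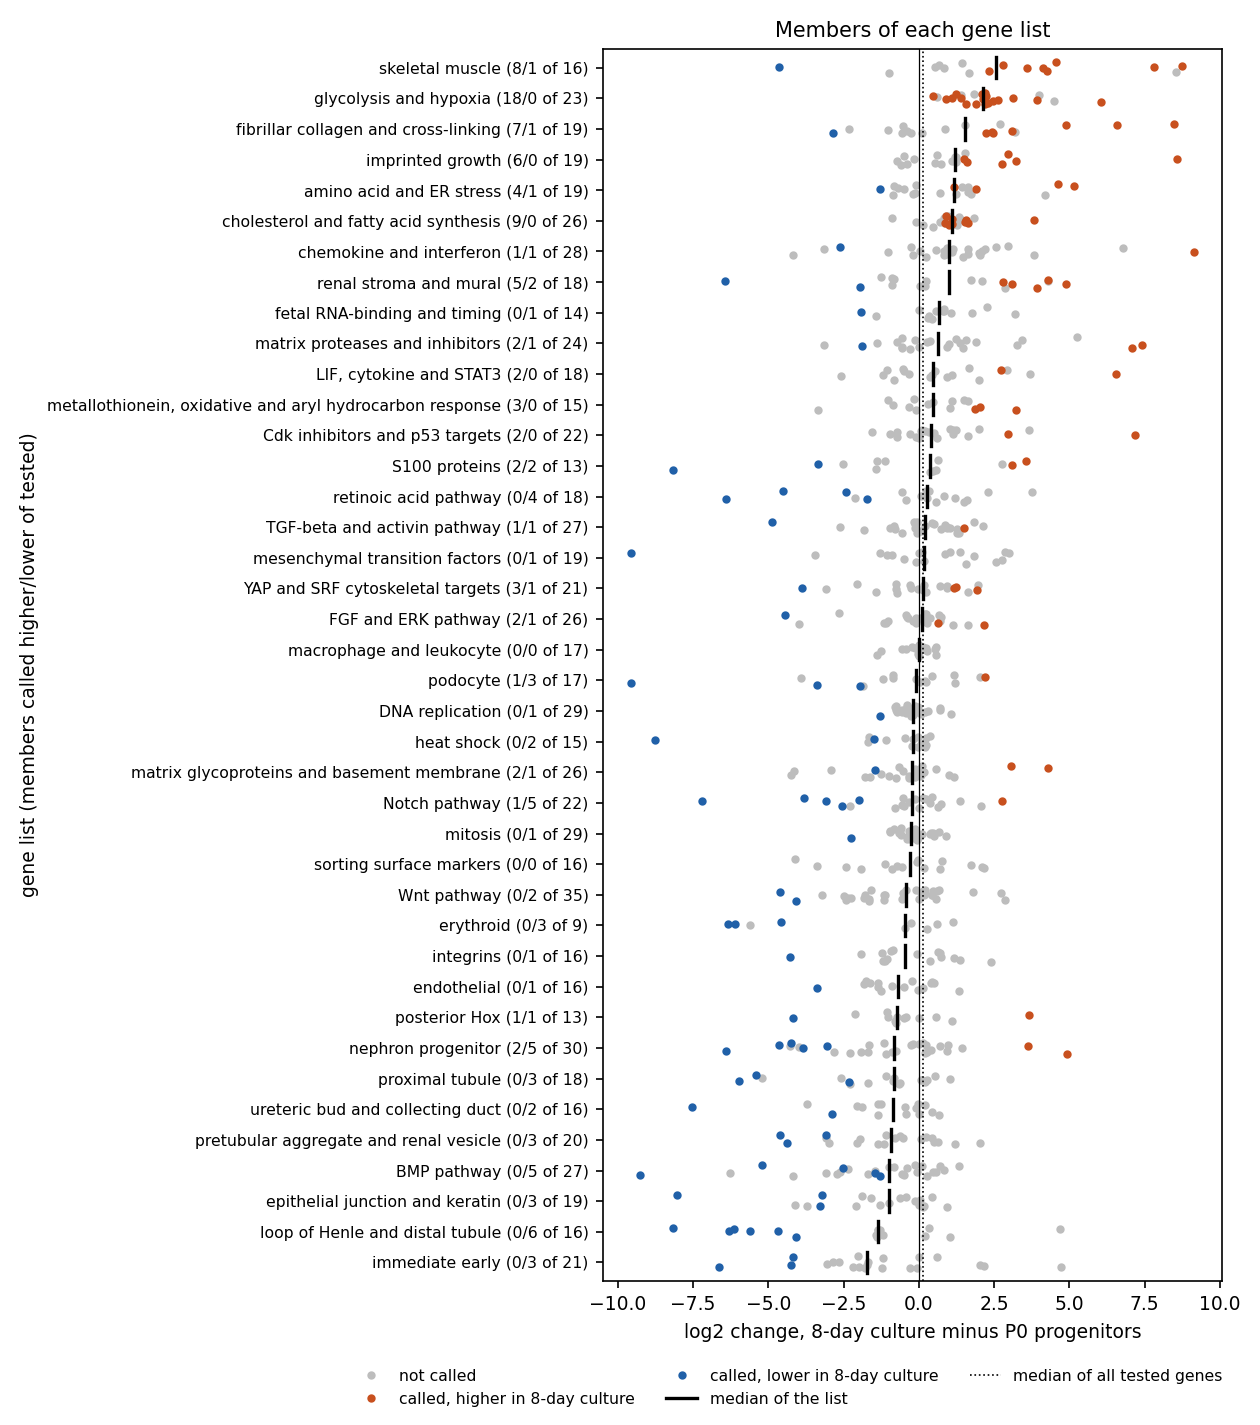
Log2 change (8-day culture minus P0 progenitors, horizontal axis) of every tested member of the 40 gene lists, ordered by median, with called members coloured, list medians as bars and the median of all tested genes (0.13) dotted. Skeletal muscle, glycolysis and hypoxia, and fibrillar collagen lie at the top, and immediate early and distal tubule genes at the bottom, while DNA replication and mitosis lie close to 0.

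Outside the lists, the largest rises among genes well above background on all 4 arrays included Nav3, Nfib and Sema3a. Nav3, a microtubule-associated guidance gene, read 20.9 and 14.9 in the 8-day cultures, against 0.12 and 0.285 in P0 progenitors (95.8-fold higher, log2 change 6.58 ± 0.52, adjusted p = 0.00159). Nfib, a transcription factor of the NFI family, read 13.9 and 5.15, against 0.199 and 0.141 (50.5-fold higher, adjusted p = 0.00159), and the lowest change among its probes was 3.02 log2 units. Both kept their calls without any 1 array. Sema3a, a secreted guidance cue, read 4.2 and 5.89, against 0.155 and 0.166 (31.0-fold higher, adjusted p = 0.0137), a call lost in each fit without 1 array. Among genes not well above background in P0 progenitors, Syt13, of a membrane traffic family, was at least 161-fold higher (13.8 and 4.97 against 0.0106 and 0.0122). Anxa1, a phospholipid-binding protein of the inflammatory response, was at least 50.7-fold higher (1.9 and 3.59 against 0.0159 and 0.0136, adjusted p = 0.000467). Pf4, the platelet chemokine, was at least 39.2-fold higher (2.28 and 1.79 against 0.0104 and 0.0121). The call of Anxa1 was kept in all 4 fits without 1 array, that of Syt13 in 1 and that of Pf4 in none.

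The largest falls outside the lists included Cldn11, Padi2, Pcp4 and Wfdc2. Cldn11, a tight junction gene, read 0.277 and 0.171 in the 8-day cultures, against 17.6 and 21.3 in P0 progenitors (88.8-fold lower, log2 change -6.47 ± 0.37, adjusted p = 0.000501), and E11.5 progenitors at 12.3 and 7.31 were near P0. Padi2, which turns arginine in proteins into citrulline, read 0.0611 and 0.0508, against 5.05 and 3.3 (73.3-fold lower, adjusted p = 0.000805). Both kept their calls without any 1 array. Pcp4, a calmodulin regulator, read 0.94 and 0.128, against 19.2 and 23.9 (61.7-fold lower, adjusted p = 0.0420), and Wfdc2, a secreted epithelial protein, 0.0846 and 0.286, against 7.5 and 5.08 (39.7-fold lower, adjusted p = 0.00891). Cldn6, a claudin of embryonic epithelium, was not well above background in culture and was at least 105-fold lower (0.0256 and 0.0184 against 3.92 and 8.35), with 110 and 75.4 in P0 non-progenitors. Pcp4 and Cldn6 were called in none of the 4 fits without 1 array and Wfdc2 in 2. Rnase12, of the ribonuclease A family, read 0.0558 and 0.0489, against 4.49 and 3.67 (at least 74.6-fold lower, adjusted p = 0.000259), and was called in all 4.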

How the data were processed

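Total RNA from sorted or cultured mouse cells was amplified, labelled with Cy3 and hybridised to single-colour Agilent arrays, per the labels' protocols. The deposited values are the intensity of each spot, with local background subtracted by the authors' scanner software (Feature Extraction, version 11.5.1.1, as per the file headers). The deposited file of P0 replicate 2 holds 3 significant digits.

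Control spots and outlier flags were left out. Intensities were divided by each array's 75th percentile and taken to log2. Of 34602 genes, each taken from its brightest probe on average, 26251 were tested because a probe stood well above background on both arrays of some group, 17421 of them under a RefSeq symbol. Groups were fitted over all 10 arrays with limma 3.58.1 in R 4.3.3 (intensity trend, 2-sided, Benjamini-Hochberg adjustment), a procedure tested on simulated data. No pseudocount was used. A probe not well above background on either array of a group gave an "at least" fold, the bright group's mean against the higher of the dim probe's own signal and the array's lowest signal well above background. Disagreement between probes is stated for several genes but was not listed for every gene.

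Named genes were the 12 largest rises and 12 largest falls, the 8 highest and 8 lowest bounds, per list up to 5 called members, those against the majority and up to 3 uncalled ones by level, plus a core set. The members and lists were chosen with earlier results of these data known. Alternatives covered scaling, background, filters, probes, moderation, replicate block, slide and samples. Arrays carry no read depth, and their number limits the precision. Results for some genes are not reported here.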

Additional observations from a re-analysis of the deposited data

How the results depend on the processing

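The 1045 calls became 491 without the intensity trend, 482 with slide as a fixed term (as without 8-day replicate 2), 465 on the shared slide alone, 350 with the compared groups alone, and 123 to 482 without 1 array. The other alternatives gave 748 to 1114 calls. Among 134 called genes of the naming rule, 5 lost their call under quantile normalization, 54 with slide as a fixed term, and 92 without either P0 array, with no change of sign in these. Fgfr1 reversed with the mean of its probes (-1.67, adjusted p = 0.0158) and Podxl with low values floored (0.0775, adjusted p = 0.925), and the cause was not tested. Replicate numbers came from the labels but same-numbered 8-day and P0 arrays did not deviate together (correlation 0.0182), and a replicate block gave 872 calls. Signal over background limits 210 called genes to a bound, 80 higher and 130 lower. Several list medians were smaller under the normexp background, for example -0.646 for distal tubule genes and 0.335 for stromal genes.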

Other observations

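Other lists held few calls. Among 19 tested epithelial junction and keratin genes 0 were higher and 3 lower (median log2 change -1.002). Cdh16, the kidney-specific cadherin, was 9.76-fold lower in 8-day cultures than in P0 progenitors (adjusted p = 0.00173, limma), and its call was kept in all 4 fits without 1 array, while Cldn6 and Cldn8, both claudins, were the other lower members. Among 13 S100 genes 2 were higher, S100a6 (11.7-fold) and S100a10 (8.44-fold), and 2 lower, S100g and S100a1 (10.3-fold). The median of that list was 0.37, and -0.0583 under the normexp background. Among 15 heat shock genes 2 were lower, Hspa1a and Cryab (2.83-fold). Itga11 was the 1 lower member of 16 integrins (6.25%), and Foxc2 the 1 lower member of 19 mesenchymal transition factors (5.26%), beside 3.98% of all genes. Among 16 surface markers used to sort progenitors 0 were called by limma.

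Genes named by a RefSeq symbol were called in both directions alike, 369 higher and 360 lower of 17421 (4.18%, median log2 change 0.042). Probes under other names in the files were called higher more often, with 197 higher and 27 lower of 4798 (4.67%), and probes named for a genomic region gave 66 higher and 26 lower of 4032 (2.28%). Their medians were 0.271 and 0.287.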
